A study of Mus musculus with 4 samples.

Results

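Cytosolic ribosomal protein genes were followed in laser-captured hair follicles of hairless Hos:HR-1 mice and their heterozygous controls. The genes were chosen by symbol alone, from probe sets annotated with a single gene: symbols of the form Rpl or Rps plus a number, with at most one closing letter, together with Rplp0, Rplp1, Rplp2, Rpsa and Fau, and without the Rps6k kinases. The choice gave 46 genes measured by 97 of 22626 probe sets, of which 24 genes encode proteins of the large subunit and 22 proteins of the small subunit. Rplp1 had no such probe set. A further 102 probe sets carried several symbols that included a ribosomal protein gene. They covered 41 ribosomal protein genes, 27 of them without any probe set here, and were not used. The family is therefore described only in part.

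Gene expression was measured on 1-colour arrays in follicles of dorsal skin at day 14 after birth, from untreated male mice of one N1 generation bred from a heterozygous and a homozygous parent. The 2 control samples, referred to as the controls and called heterozygous replicates 3 and 4, are +/HrHos and the 2 homozygous samples, replicates 2 and 3, are HrHos/HrHos. Hr encodes Hairless, a corepressor needed for the hair cycle. No group was free of the HrHos allele, and the labels do not tie an array to an animal. Each sample pooled 50 to 70 follicles, without a label for the part of the follicle that was taken, and the RNA was amplified before labelling. Homozygous replicate 3 is named as homozygous in its title but carries the heterozygous genotype in its strain field. Its source name carries the number of the other homozygous sample, replicate 2. Whether the 2 homozygous samples share a source cannot be told from the labels. Homozygous replicate 3 was grouped by its title, and values by the strain field are given for named genes whose direction they turn.

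The cytosolic ribosome joins a small subunit, which reads the mRNA, to a large subunit, which forms the peptide bond. Each ribosomal protein is needed in matched amounts, and cells hold most of their mRNAs in a coordinated class whose translation is controlled through mTORC1. That class is marked by a terminal pyrimidine tract: the mRNA begins with a C and runs on in C and U. The growing hair matrix is among the fastest dividing tissues of the mouse and makes hair protein in bulk, so it is rich in ribosomes. Several ribosomal protein mutants of the mouse were found by their coat or skin colour, among them Rps19 and Rps20 mutants with dark skin.

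The start of the gene is shown for 8 members, because the tract is the sequence feature the family is known for. They were picked for the tract: 7 are among the 9 genes that carry it at the annotated start, and Rpsa, without one, is shown for contrast, so they do not represent the family. Sequences are from RefSeq (GRCm38.p6), 5′ to 3′ on the strand of the gene, with 10 bases before the annotated start and 20 from it. Capitals mark the longest run that begins with C and continues in C or T, where it holds at least 4 further pyrimidines. The windows lie at chr19:6057937-6057966 for Fau, chr2:39005112-39005141 for Rpl35, chr11:114668570-114668599 for Rpl38, chr7:141447641-141447670 for Rplp2, chr17:27635225-27635254 for Rps10, chr17:33955646-33955675 for Rps18, chr4:86857348-86857377 for Rps6 and chr9:120127756-120127785 for Rpsa. Rpl35, Rps10, Rps18 and Rps6 lie on the minus strand.
Fau: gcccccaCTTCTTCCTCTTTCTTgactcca
Rpl35: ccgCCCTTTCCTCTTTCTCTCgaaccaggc
Rpl38: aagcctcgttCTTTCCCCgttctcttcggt
Rplp2: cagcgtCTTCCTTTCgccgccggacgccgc
Rps10: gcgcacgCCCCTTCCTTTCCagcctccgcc
Rps18: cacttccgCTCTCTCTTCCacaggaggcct
Rps6: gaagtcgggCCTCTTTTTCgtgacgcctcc
Rpsa: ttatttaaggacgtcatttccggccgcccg

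Of the 46 genes 40 had an annotated start in the RefSeq table. In 9 of the 40 (22.5%) a start base C was followed by at least 4 pyrimidines, against 3.01% of 27025 genes in the table. Annotated starts are often a few bases off. When a run of C and at least 6 pyrimidines was sought within 20 bases on either side, on the strand of the gene only, 24 of 40 (60%) held one against 21.4% of all genes. The window of Rpsa holds no such run. The 24 genes with a run had a median genotype difference of -0.12 on the log2 scale, and the 16 without one -0.09. Differences here and below are homozygous minus heterozygous on the scale of log2(intensity + 32), which understates those of dim probe sets. A run of letters is a description of the window, not a test of its use.

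Ribosomal protein probe sets were among the brightest on every array. The 97 probe sets made up 0.429% of all but held 6.88% and 5.64% of the summed intensity in heterozygous replicates 3 and 4. In homozygous replicates 2 and 3 they held 6.15% and 6.36%. Where a gene had several probe sets, the brightest stands for it unless stated otherwise. The median gene then lay at the 98.9th and 98.6th percentile of its array in the heterozygous samples, and at the 98.8th and 98.7th in the homozygous samples. Between 35 and 38 of the 46 genes lay above the 90th percentile in each sample. The median intensity of the 46 genes was 4978 and 3751 in the controls and 4286 and 3782 in the homozygous samples. The 2 homozygous values thus lay between the 2 heterozygous ones. In these bulk samples fewer cells and less RNA per cell cannot be told apart.

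The brightest member was Rpsa in heterozygous replicate 3, Rpl13a in heterozygous replicate 4 and homozygous replicate 3, and Rps18 in homozygous replicate 2. Rpsa, the laminin receptor gene whose product sits on the small subunit, read 24265 in heterozygous replicate 3. In the other samples Rpsa read 15464, 15614 and 16199. Rps18, a protein of the head of the small subunit, read 23974 and 20051 in the controls and 19265 and 17770 in the homozygous samples. These are signals of probe sets, whose brightness also depends on probe affinity, so they do not rank the mRNAs of different genes.

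Evenness over the family was close in all 4 samples. The SD over the 46 genes of their log2 values was 2.32 and 2.45 in heterozygous replicates 3 and 4, compared with 2.40 and 2.27 for the homozygous pair, so the groups overlapped. Pielou's evenness of the linear intensities, which is 1 when all genes have the same signal, was 0.870 and 0.866 in the heterozygous and 0.882 and 0.885 in the homozygous samples. The 5 brightest genes held 35.3% and 35.1% of the family's signal in the controls and 30.9% and 31.7% in the homozygous samples. Both of these measures parted the groups by a small step, with the homozygous samples more even. They weigh the brightest genes most. The whole array was narrower at the top in homozygous samples: 110 and 98 probe sets reached an intensity of 8000 there, against 132 and 120 in the heterozygous samples. These counts include the ribosomal probe sets, and the part of the array's range in the evenness was not tested.

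By the median gap over this family, the 2 control samples differed from each other more than either differed from the homozygous samples. Heterozygous replicate 3 lay above heterozygous replicate 4 in 37 of 46 genes, with a median gap of 0.40 (log2), while the median over all genes was -0.03. After quantile normalization the gap was 0.31 (34 of 46 genes), and with arrays centred on their medians 0.36 (36 of 46). Between genotypes the median gaps were 0.32 and 0.28 for heterozygous replicate 3 over the homozygous samples, and 0.00 and -0.05 for heterozygous replicate 4 against them. The 2 homozygous samples had a median gap of -0.01. Single genes scattered more widely than these medians in every pair. Over the 44 tested genes the SD of the gap was 0.53 between the homozygous samples and 0.47 between the controls. Between genotypes it was 0.44 to 0.50. Among the 44 tested genes heterozygous replicate 3 held the highest value in 20 and heterozygous replicate 4 the lowest in 18, against 25.2% and 29.3% of all genes. Which control stood apart depended on the scaling. With arrays centred on their medians heterozygous replicate 3 exceeded the homozygous samples by 0.26 and 0.35, and heterozygous replicate 4 lay at -0.02 and 0.05 against them. After quantile normalization heterozygous replicate 3 exceeded the homozygous samples by only 0.09 (27 of 46 genes) and 0.04 (25 of 46), while heterozygous replicate 4 lay at -0.10 (18 of 46 above) and -0.21 (9 of 46) against them.

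**Figure D1:**
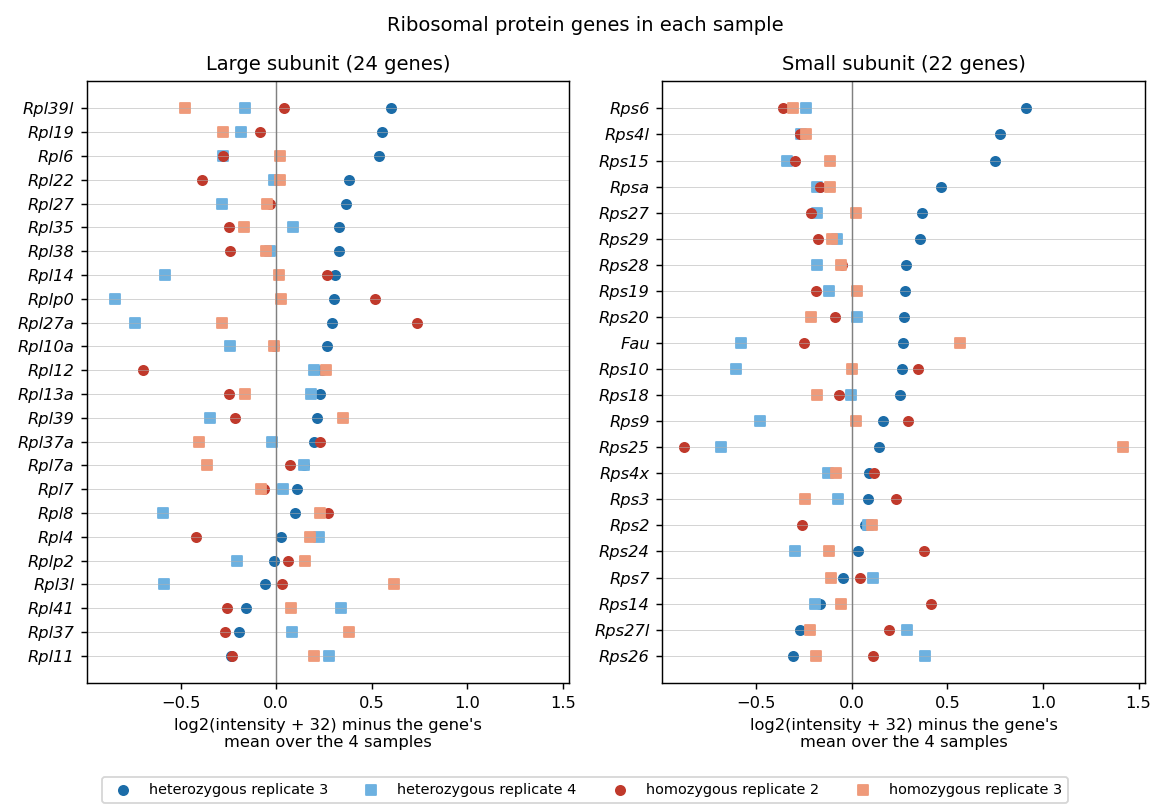
Each point is the log2(intensity + 32) of a gene's brightest probe set in 1 sample minus that gene's mean over the 4 samples (x axis, log2 units), for the 24 large subunit genes and the 22 small subunit genes. Heterozygous replicate 3 (dark blue circles) lies above the gene's own mean in 37 of 46 genes and heterozygous replicate 4 (light blue squares) in 14, with the homozygous samples (18 and 20) between them.

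The signal of the actin control, a probe set at the 3′ end of Actb, moved with that gap, at 8585 and 967.9 in the controls (replicates 3 and 4), against 2383 and 4874 in the homozygous samples. The 3′ signal of Gapdh differed much less between the controls, at 3546 and 3038, against 2617.5 and 3444 in the homozygous samples. Dividing the 3′ signal by that of the middle probe set, a measure raised when RNA is degraded or truncated, gave 17.2, 30.1, 15.4 and 14.8 for Gapdh and 42.1, 11.3, 45.9 and 33.7 for Actb, in the same order of samples. The part of RNA quality in the gap was not tested.

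The gap between the controls was not shared by every gene. In 9 of the 44 tested genes heterozygous replicate 4 was the higher control. Rps26, a small subunit protein near the mRNA exit, read 3267 and 5287 in the controls, 3 before 4, against 4376 and 3552 in the homozygous samples. Rpl11, which binds 5S rRNA and, when free of the ribosome, the p53 inhibitor Mdm2, read 1750 and 2512 against 1759 and 2380. Rps27l, a paralog of Rps27 known as a p53 target, read 1466 and 2177 against 2038 and 1520. In all 3 kept probe sets of Rps27l the 2 highest samples were heterozygous replicate 4 and homozygous replicate 2. Genotype groups overlapped in all 3 genes.

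Between genotypes no ribosomal protein gene passed the test. Of the 97 probe sets 86, from 44 genes, were bright enough to be tested, and 0 of 86 passed limma's test (Benjamini-Hochberg adjusted p, threshold 0.05). The smallest adjusted p was 1.00. Over all 13576 tested probe sets the share called was 0%. At an unadjusted p under 0.05 there were 2 of 86, or 2.33%, against a background of 2.30%. Both lay above 0, where 1.27% of all tested probe sets lay, with a further 1.03% below 0. The median 95% interval reached 0.85 (log2) to either side, or 1.80-fold, before any adjustment for the number of probe sets. In 38 of the 86 probe sets the interval lay within 1 log2 unit (2-fold) on both sides.

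The 46 genes had a median difference of -0.13 (log2, SD over genes 0.32) on the deposited scale. It was -0.15 with arrays centred on their medians and 0.04 after quantile normalization, so the direction of the family depends on the scaling. Without heterozygous replicate 3 the median was 0.02. On the deposited scale 15 of the 46 genes lay above 0 and 31 below, where 51.1% of all 12393 genes lay above 0 with a median of 0.01. Over the 86 tested probe sets, in place of the brightest of each gene, the median was -0.02 and 41 lay above 0 (47.7%, against 51.7% of all tested probe sets). Of the 44 tested genes 41 lay within 0.5 log2 units of 0 (93.2%), as did 80.3% of all tested genes. The 3 beyond it were Rps6, Rplp0 and Rps25. These shares are not matched for brightness, and differences were narrower in bright probe sets. At intensities of 8000 or above their SD was 0.21 for ribosomal and 0.25 for other probe sets. Below 500 it was 0.51 and 0.40, so the dim ribosomal probe sets were not the tighter ones.

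The 24 large subunit genes had a median difference of -0.16 (8 above 0, 16 below) and the 22 small subunit genes -0.09 (7 above 0, 15 below). The step between them, -0.07, was smaller than the replicate SD of that step (0.08) and turned to 0.014 when the kept probe sets of a gene were averaged, and to 0.0029 by the strain field. Relative to each gene's own mean the median of the large subunit was 0.23 and -0.10 in the controls, against -0.07 and 0.02 in the homozygous samples. The small subunit gave 0.26, -0.18, -0.08 and -0.11.

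Among genes whose samples did not overlap between genotypes, 9 of 44 (20.5%) lay lower in both homozygous samples and 3 (6.82%) higher, against 13.4% and 13.8% of 8557 genes. Over the tested probe sets these were 14 of 86 (16.3%) lower and 12 (14.0%) higher, against backgrounds of 13.3% and 13.6%. The 9 lower genes were Rpl13a, Rpl35, Rps6, Rps20, Rps18, Rpl38, Rps29, Rpl7a and Rpl7. Most are represented by very bright probe sets.

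Rpl13a, a large subunit protein that is also known to silence translation when released, read 23455 and 22654 in the controls and 16857 and 17863 in the homozygous samples. On this probe set the groups stood apart, at -0.41 ± 0.21 on the log2 scale (difference ± SE with n = 2 in each group here and below), which became 0.05 after quantile normalization. The other 3 kept probe sets of Rpl13a lay above 0, at 0.27, 0.18 and 0.0061, with overlapping groups. Rpl35, which lines the exit of the peptide tunnel, read 18503 and 15652 against 12390 and 13127, a difference of -0.42 ± 0.23. Rps20 read 15619 and 13133 against 12128 and 11128 (-0.30 ± 0.25), and Rpl38, whose mutation gives the Tail-short mouse, read 13838 and 10793 against 9307 and 10635 (-0.30 ± 0.27). In both genes the lower control lay closer to the higher homozygous sample than to the other control. Without heterozygous replicate 3 the differences were -0.18 and -0.12. After quantile normalization the difference was -0.12 for Rpl35, -0.02 for Rps20 and -0.03 for Rpl38.

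Rps29, a zinc-binding protein of the small subunit head, read 16426 and 12132 against 11355 and 11942. The difference was -0.28 ± 0.26, and -0.059 without heterozygous replicate 3. The other 2 kept Rps29 probe sets gave 0.0070 and 0.026 with overlapping groups. Rpl7a read 5057.6 and 5059.9 against 4806 and 3542, and Rpl7 4597 and 4355 against 4068 and 4024. The differences were -0.29 ± 0.35 and -0.14 ± 0.34. That of Rpl7a was 0.10 by the strain field and -0.074 without homozygous replicate 3.

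Rps6, the small subunit protein phosphorylated by the S6 kinases, was the dim exception in this group. Its kept probe set read 714 and 304 in the controls and 277 and 288 in the homozygous samples. A second Rps6 probe set lay near the floor, at 2.5 to 34.7, and was not tested. Heterozygous replicate 3 stood apart and the other 3 samples lay together, so the difference of -0.67 ± 0.50 was -0.09 without that sample.

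Of the 3 genes higher without overlap, Rps14, a protein near the mRNA channel of the small subunit, read 8474 and 8322 in the controls and 12701 and 9172 in the homozygous samples. The difference was 0.36 ± 0.28. Without homozygous replicate 2, the other probe set of the gene became the brightest and gave 0.06. Rpl8, a protein near the peptidyl transferase center, read 2482 and 1526 against 2800 and 2719 (0.50 ± 0.42). Its homozygous samples lay close together and its controls did not, and the difference was 0.15 without heterozygous replicate 4 and 0.84 without heterozygous replicate 3.

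The stalk of the large subunit recruits the translation factors that hydrolyse GTP, and both of its measured genes lay above 0. Rplp2 read 7080 and 6188 in the controls and 7454 and 7917 in the homozygous samples, a difference of 0.21 ± 0.29 (0.37 after quantile normalization). Rplp0, which anchors the stalk, read 2261 and 1004 against 2628 and 1860, a difference of 0.54 ± 0.49. Its groups overlapped, since heterozygous replicate 3 lay above homozygous replicate 3. Without heterozygous replicate 4 the difference of Rplp0 was -0.03.

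Fau, made as a fusion of a ubiquitin-like protein with a small subunit protein, read 1704 and 933 against 1180 and 2105 (0.31 ± 0.49). Its samples interleaved, and by the strain field the difference was -0.34. Of the 4 measured genes at the tunnel exit 1 lay above 0, at 0.13, and 3 below, Rpl35 among them. Rpl19 read 11625 and 6954 against 7470 and 6513 (-0.37 ± 0.33) and Rpl22 read 2208 and 1673 against 1284 and 1716 (-0.37 ± 0.43). In Rpl19 the difference was 0.00 without heterozygous replicate 3. In Rpl22 a dimmer probe set gave 0.42.

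Genes with known mouse mutants of coat, skin or tail gave 1 difference above 0 and 4 below among 5 measured. Rps19, mutated in a dark skin mouse and in human Diamond-Blackfan anemia, read 3652 and 2767 against 2633 and 3060 (-0.16 ± 0.38). Rpl27a, mutated in the sooty foot ataxia mouse, read 1860 and 894 against 2544 and 1238 (0.45 ± 0.52). Neither pair of groups stood apart. The most variable gene of the small subunit was Rps25, at 873 and 478 against 415 and 2156. Its highest and its lowest value both belonged to homozygous samples, and by the strain field the difference was -1.17 in place of 0.54 ± 0.69.

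Of the 4 measured paralogs, Rpl3l and Rps4l were dim, while Rpl39l and Rps27l (above) were bright enough to be tested. Rpl3l, which replaces Rpl3 in striated muscle, was at 19.8 and 3.8 in the controls and 23.0 and 50.5 in the homozygous samples, below the level needed for testing. Rps4l read 38.2 in heterozygous replicate 3 and between 2.0 and 2.7 in the other samples. Rpl39l, a paralog enriched in testis, read 274 and 149 against 176 and 113 (-0.44 ± 0.44). Rpl39l overlapped between the groups, and by the strain field its difference was 0.05. The X-linked Rps4x, in contrast, was steady at 6546 and 5630 against 6662 and 5797 (0.03 ± 0.31).

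On the deposited scale the brightest probe sets lay mostly below 0, in this family and among the other probe sets. In the family the medians did not fall steadily with brightness. Of 21 ribosomal protein probe sets with a mean intensity of 8000 or above, 15 lay below 0, with a median of -0.16, and 8 were lower without overlap. Of the 89 other probe sets that bright, 77 lay below 0, with a median of -0.30, and 47 were lower without overlap. From 2000 to 8000 the medians were -0.03 for 25 ribosomal and -0.06 for 471 other probe sets. From 500 to 2000 the 19 ribosomal probe sets had a median of 0.41, with 13 above 0, and the 1508 others 0.01. That bin holds few probe sets, from 14 genes. Of the 19, 2 were higher and 0 lower without overlap, against 178 and 168 of the 1508 others. The median gap of heterozygous replicate 3 over replicate 4 was 0.70 for these 19 and -0.07 for the others. Below 500 the medians were -0.03 for 21 ribosomal and 0.02 for 11422 other probe sets. After quantile normalization the brightest ribosomal probe sets had a median of 0.17 and the brightest others -0.02. The 9 hybridization spike-ins, added in fixed amounts to each array, had both homozygous values below both controls in 9 of 9 cases, with a mean difference of -1.10 (log2). Their part in these differences was not tested.

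**Figure D2:**
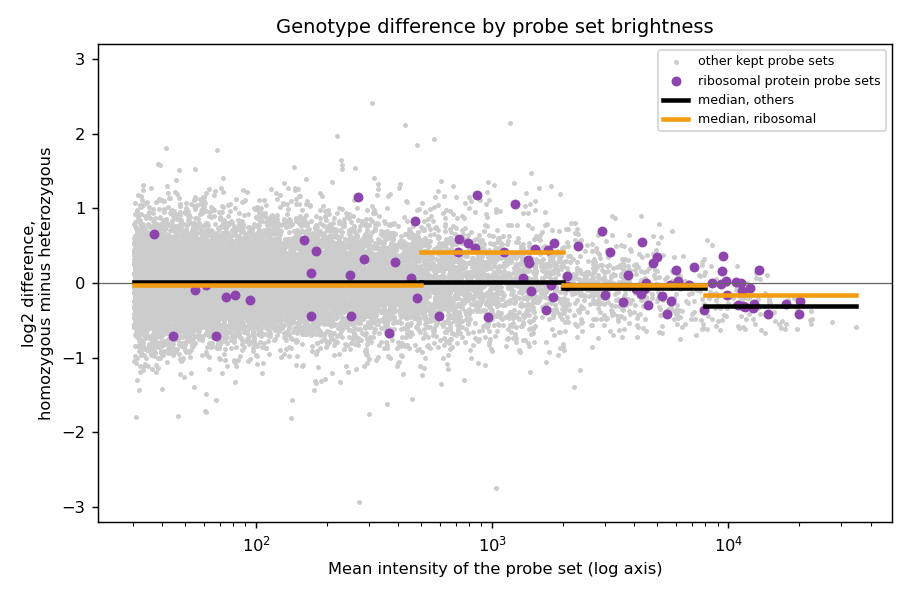
The log2 difference, homozygous minus heterozygous, of each tested probe set (y axis) is set against its mean intensity on a log axis, for 86 ribosomal protein probe sets (purple) and all others (grey), with bars at the medians of 4 brightness bins. In the brightest bin the bars lie at -0.16 for ribosomal probe sets and -0.30 for the others, and between 500 and 2000 they lie at 0.41 and 0.01.

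Probe sets of the same gene often disagreed. In 18 genes with 2 or more kept probe sets (60 in all), the pooled SD of the difference within a gene was 0.32 and the SD of the gene means was 0.32. These SDs are not like measures, because a mean over several probe sets scatters less than a single probe set. In 13 of the 18 genes the signs of the probe sets differed. In 9 of the 18 the brightest probe set had the lowest difference, and in 2 the highest. Ribosomal protein genes have many near-identical processed pseudogenes, and 40 of the 97 probe sets have the suffix _x_at, which marks probes that may also match other sequences. The levels of these genes are therefore uncertain.

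Rps18 shows the range of such probe sets. The brightest gave -0.24, and the next brightest read 12615 and 12629 in the controls and 13432 and 15214 in the homozygous samples, a difference of 0.18. The other kept probe set gave 0.42, and 3 more lay near the floor at 4.1 to 40.5. Rpl41, the smallest ribosomal protein, ranged from -0.45 to 0.58 over 4 kept probe sets. Rps7 gave -0.07 on its bright probe set (11903 and 13304 against 12683 and 11398) and 0.83 on a dim one. Rpl35 ranged from -0.70 to 0.09 over 6. Of 6 kept Rps24 probe sets 5 lay above 0, with differences up to 0.66, and the brightest read 4899 and 3895 against 6235 and 4413 (0.26 ± 0.35).

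Rps10, Rps9, Rps14, Rps20 and Rps15 were the 5 genes whose kept probe sets all had 1 sign. All 5 kept probe sets of Rps10, a protein of the small subunit head, lay above 0, from 0.35 to 1.18. The probe set with the largest difference read 725 and 435 in the controls and 1625 and 1058 in the homozygous samples, without overlap (1.18 ± 0.49, limma unadjusted p = 0.0350). The brightest read 5982 and 3262 against 6348 and 4992 (0.35 ± 0.38) and overlapped. In all 5 heterozygous replicate 4 was the lowest sample and homozygous replicate 2 the highest. Without heterozygous replicate 4 the brightest gave -0.09.

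The other probe set with an unadjusted p under 0.05 belonged to Rps9, which helps keep decoding accurate. It read 269 and 103 against 336 and 519, a difference of 1.16 ± 0.51 (limma unadjusted p = 0.0437). Relative to its own mean this probe set lay at -0.0024 and -1.16 in the controls and at 0.29 and 0.87 in the homozygous samples. Heterozygous replicate 4 alone was thus far below the rest. The brightest of Rps9 read 324 and 196 against 358 and 291 (0.32 ± 0.45) and overlapped. Rps15 lay below 0 on both probe sets, at -0.41 and -0.44. Its brightest read 9226 and 4323 against 4451 and 5049, so heterozygous replicate 3 alone was high, and without it the difference was 0.13. The 3 bright probe sets of Rps28 gave -0.11 to 0.01, all highest in heterozygous replicate 3 and lowest in heterozygous replicate 4.

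**Figure D3:**
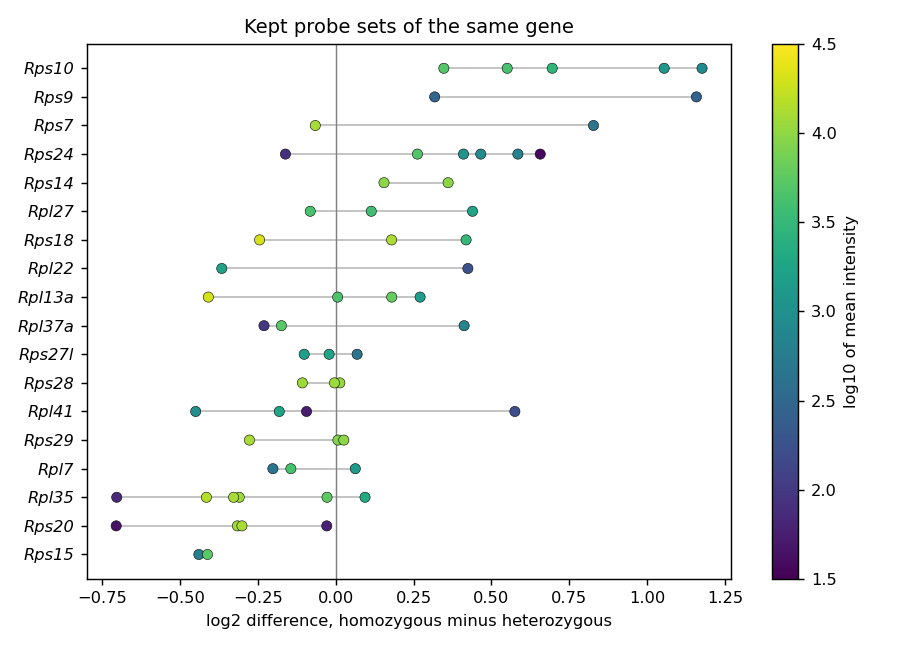
Each point is the log2 difference, homozygous minus heterozygous, of 1 kept probe set (x axis), with the probe sets of a gene on 1 row and the colour giving log10 of the mean intensity, for the 18 genes with 2 or more. Rps10 lies wholly above 0 (0.35 to 1.18) and Rps15 wholly below, while in 13 genes, such as Rpl41 (-0.45 to 0.58), the points fall on both sides.

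Other genes of protein synthesis also gave no call. The share of all tested probe sets called was 0% and no member of any list below passed. Paralogs and ribosomal proteins outside the symbol rule numbered 3 measured genes. Rpl22l1, a paralog of Rpl22, read 1502 and 1843 in the controls and 1016 and 892 in the homozygous samples, without overlap (-0.79 ± 0.44, limma unadjusted p = 0.100). Rps3a1 read 2500.3 and 4243 against 4080.2 and 3638 (0.24 ± 0.39).

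Of 19 translation factors and other genes with tract-bearing mRNAs 11 lay above 0, with a median of 0.02. Their highest sample by the median was heterozygous replicate 4 (0.14, against -0.03 in heterozygous replicate 3), the low control for the ribosomal proteins. Tpt1, the abundant translationally controlled tumor protein gene, read 18811 and 23774 against 16674 and 12642 (-0.54 ± 0.24, limma unadjusted p = 0.0478), and Eif3e, an initiation factor subunit, 9298 and 10999 against 6189 and 6985 (-0.62 ± 0.29). Both were lower without overlap. After quantile normalization the differences were -0.14 for Tpt1 and -0.47 for Eif3e. The elongation factor gene Eef2 read 1016 and 505 against 1050 and 1133 (0.58 ± 0.49), which was 0.099 without heterozygous replicate 4 and 1.06 without heterozygous replicate 3.

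Of 37 nucleolar factors of ribosome assembly 24 lay above 0, with a median of 0.12. Rrs1, needed for 5S rRNA assembly into the large subunit, read 56.2 and 83.4 against 114 and 145 (0.67 ± 0.37), and Wdr12 read 120 and 142 against 213 and 236 (0.66 ± 0.39). Nop56, a core protein of the box C/D snoRNPs that guide rRNA methylation, went the other way at 1193 and 2004 against 550.1 and 1308 (-0.84 ± 0.53), with overlapping groups. It gave 0.045 without _x_at and _s_at probe sets. Of 74 mitochondrial ribosomal protein genes 47 lay above 0, with a median of 0.16, and Mrps6 read 34.1 and 46.2 against 77.0 and 108 (0.78 ± 0.36). The difference between these lists and the cytosolic family was not tested, and the bright probe sets in which the family is rich lay low on the whole array.

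**Figure D4:**
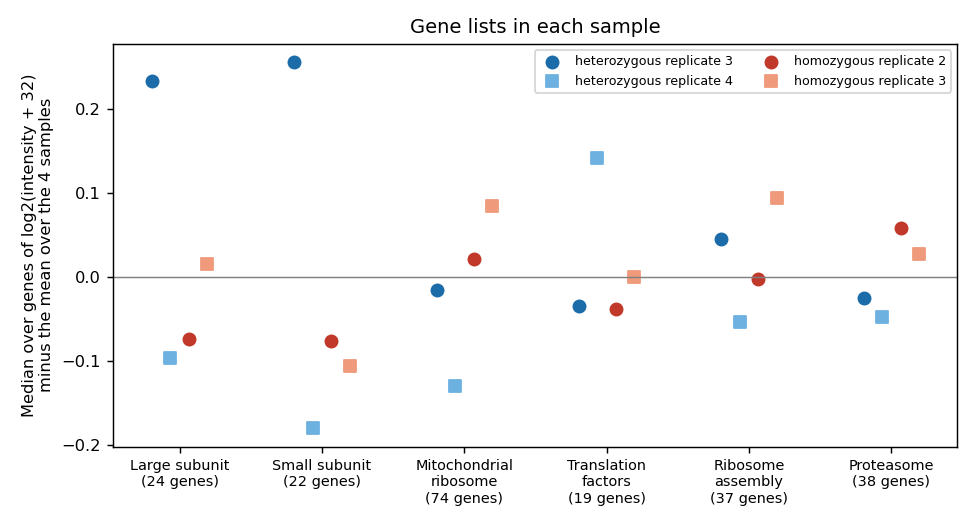
For 6 gene lists each point is the median over genes of log2(intensity + 32) minus the gene's mean over the 4 samples, 1 point per sample. The large and small subunit lists are highest in heterozygous replicate 3 (0.23 and 0.26) and lowest in heterozygous replicate 4 (-0.10 and -0.18), while the translation factors are highest in heterozygous replicate 4 (0.14).

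Markers showed what the captured material held. Hair shaft keratins, which define the follicle cortex and cuticle, summed to 10981 and 11287 in the controls and 16648 and 19941 in the homozygous samples, with 12 of 12 above 0. Other follicle keratinocyte genes summed to 32910 to 37757 against 27832 to 29704, with 8 of 13 below 0. Dermal fibroblast genes summed to 11719 to 14896 against 7462 to 7504 (12 of 13 below 0), adipocyte genes to 12396 to 13590 against 6023 to 10282 (7 of 7 below 0), and melanocyte genes to 1834 to 4398 against 3782 to 7130 (7 of 8 above 0). Skeletal muscle genes summed to 601 to 1693 against 400 to 724 (10 of 12 below 0) and leukocyte genes to 599 to 1193 against 757 to 1468 (7 of 9 above 0). Only 7 of these muscle and 6 of these leukocyte genes were bright enough to be tested. Single genes made up much of the sums. Myh1 read 717 in heterozygous replicate 4, and Csf1r read 590.9 and 267 in the controls and 926.2 and 375.5 in the homozygous samples. No listed marker was at exactly 0. These cells all express ribosomal proteins, and the part of the cell mixture in the differences above was not tested.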

How the data were processed

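The authors deposited linear probe set intensities of 1-colour Affymetrix arrays, with medians of 43.5 to 52.6 per array. The sources used here do not give the software, scaling or background correction. The deposited scale was kept, and intensities were transformed to log2(intensity + 32). After removal of 64 controls from 22690 probe sets, the brightest 60% by mean, or 13576, were fitted in limma 3.58.1 under R 4.3.3. The moderated two-sided test used lmFit, then eBayes with trend, and p-values were Benjamini-Hochberg adjusted over the 13576 (threshold 0.05). Values with no test were summarised in Python. Nothing in the labels says that samples come from separate animals, so the p-values reflect only sample-to-sample spread, possibly technical. Arrays carry no read depth, and their number limits the precision.

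Gene symbols come from GEO's platform annotation, where 20380 probe sets had 1 symbol. Alternatives were the pseudocount, the filter, quantile normalization, median centring, the grouping by strain field, eBayes without trend, the mean of a gene's probe sets, leaving out _x_at and _s_at probe sets, and leaving out each sample.

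Named were member genes with the smallest unadjusted p among those without overlap (up to 10 per direction), up to 3 per role or related list, measured paralogs and stalk genes, and up to 4 genes whose probe sets differ in sign. Rps9, Rps10, Rps15, Rps19, Rps25, Rps26, Rps28, Rps4x and Rpsa were picked outside this rule with their values in view. The members and lists were chosen with earlier results of these data known. The fit was checked on simulated data, where it called 11.6% of 2-fold, 76% of 4-fold and 100% of 8-fold changes. Most 2-fold changes would therefore be missed. Many changes of 2- to 16-fold were simulated at once over all 13576 probe sets, which eases the adjusted threshold. These rates therefore do not hold for a few changes alone, or for the ribosomal probe sets in particular.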

Additional observations from a re-analysis of the deposited data

How the results depend on the processing

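Ribosomal protein probe sets called numbered 0 in every alternative run. Over all probe sets the count ranged from 0 to 17 when 1 sample was left out, with 17 without heterozygous replicate 3. The step between subunits was 0.014 with the mean of a gene's kept probe sets, 0.14 without _x_at and _s_at probe sets, and -0.10 to 0.083 with 1 sample left out. The SD over genes was 2.49, 2.91, 2.77 and 2.58 with pseudocount 1 (heterozygous replicates 3 and 4, homozygous 2 and 3), 2.19, 2.27, 2.26 and 2.16 with the mean of probe sets, and 2.53, 2.58, 2.58 and 2.52 without _x_at and _s_at. Of 621 alternatives over 52 named genes 58 reversed the direction and 20 genes never reversed. Reversed differences after quantile normalization were 0.00055 for Rpl11, 0.050 for Rpl13a, 0.18 for Rps18, 0.019 for Rps26, 0.18 for Rps28, 0.21 for Rps7 and 0.065 for Rpsa. By the strain field, which leaves homozygous replicate 2 alone and assumed to vary like the others, they were 0.12 for Eif4e, -0.34 for Fau, -0.056 for Mycl, 0.053 for Rpl39l, 0.097 for Rpl7a, -1.17 for Rps25, 0.15 for Rps26, 0.26 for Rps27l and 0.059 for Rps7. With the mean of probe sets they were 0.11 for Eif4e, 0.012 for Rpl13a, 0.029 for Rpl22, 0.34 for Rpl7l1, 0.12 for Rps18 and 0.38 for Rps7. Without _x_at and _s_at they were 0.22 for Eif3e, 0.045 for Nop56, 0.18 for Rpl13a, 0.094 for Rpl35, 0.063 for Rpl7, 0.18 for Rps18 and -0.16 for Rps24. With 1 sample left out the differences that reversed ranged -0.11 to 0.74 for Fau, -0.44 to 1.05 for Psmd9, -0.29 to 0.22 for Rpl11, -0.73 to 0.0042 for Rpl19, -0.064 to 0.97 for Rpl27a, -0.43 to 0.067 for Rpl41, -0.56 to 0.22 for Rpl7l1, -0.031 to 1.11 for Rplp0, -0.087 to 0.78 for Rps10, -0.96 to 0.13 for Rps15, -0.36 to 0.036 for Rps19, -0.61 to 1.69 for Rps25, -0.42 to 0.27 for Rps26, -0.30 to 0.26 for Rps27l, -0.38 to 0.13 for Rps28, -0.14 to 0.62 for Rps3a1, -1.03 to 0.010 for Rps4l, -0.075 to 0.14 for Rps4x, -0.15 to 0.014 for Rps7 and -0.61 to 0.040 for Rpsa. The cause of these reversals was not tested. No paired analysis was possible because the groups share fewer than 2 replicate numbers. The arrays give no depth, and 2 samples per group limit the precision.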

Other observations

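Regulators of ribosome production gave values on both sides of 0. Of 16 measured genes of the Myc and mTORC1 pathways 8 lay above 0 and 8 below, with a median log2 difference of 0.01, and limma called 0 (0 of 13 tested at an unadjusted p under 0.05). Mtor, the kinase of that pathway, read 310 and 474 in the controls and 220.0 and 274 in the homozygous samples, lower without overlap (-0.58 ± 0.45, SE, n = 2 per group). Mycl, a Myc family gene, read 141 and 249 against 225 and 359 (0.52 ± 0.46).

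Another abundant housekeeping complex, the proteasome, had 24 of 38 measured genes above 0 and a median of 0.19. Its bright member Psmb3 read 16074 and 12277 in the controls and 10366 and 9838 in the homozygous samples (-0.47 ± 0.26). After quantile normalization its difference was -0.24. The dimmer Psmb2 read 200 and 324 against 140 and 151 (-0.69 ± 0.42).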
